A study of Caenorhabditis elegans with 82 samples.

Results

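The comparison described here set young larvae of the nematode *Caenorhabditis elegans* raised on a mixture of microbiota isolates against larvae raised on the laboratory food *Escherichia coli* OP50. It rests on 6 of the 82 deposited libraries, chosen by their labels. The 3 libraries of the mixture (Mix, replicates 1, 2 and 3) are of worms of strain N2, the laboratory wild type, on MYb65 and MYb71 together, at the stage labelled L2 (6 h). The 3 libraries of OP50 (replicates 1, 2 and 4) are of N2 worms at the same stage. Both isolates belong to the genus *Ochrobactrum*. The labels name the second isolate MYb65 where the paper names MYb237, and neither states that these are the same isolate. By the paper's methods, worms were first kept for at least 2 generations on the bacteria used, so exposure was not limited to 6 h. The paper does not describe this for the mixture separately. Worms were then synchronized by bleaching, placed on the bacterial lawn as L1 larvae and harvested 6 h later at 20 °C. RNA was taken from whole worms. Each library pools many animals, and fewer cells of a type cannot be told apart from less RNA per cell. The shares of both isolates in the mixture are not given in the sources used here, and the study does not report these libraries. Replicates of the single bacteria came from independent runs of the exposure. Whether the Mix libraries came from separate runs is not stated, so p-values measure the spread between these libraries.

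*C. elegans* takes vitamin B12 from its bacteria, and *E. coli* OP50 is a poor source of it. With enough B12, propionate from the breakdown of branched-chain amino acids and odd-chain fatty acids is turned into succinyl-CoA by a pathway that needs adenosylcobalamin. When B12 is scarce, worms switch on an alternative route, the propionate shunt, through the nuclear hormone receptors NHR-10 and NHR-68. A second B12-dependent enzyme, methionine synthase, rebuilds methionine from homocysteine and feeds the cycle that makes S-adenosylmethionine (SAM), and NHR-114 takes part when that cycle runs low. This is background, and B12 was not measured in these worms or bacteria.

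The fourth library labelled OP50 at L2, replicate 3, was left out because its profile goes against the label. It correlated best with adults on day 3 (r = 0.990 across genes, against 0.781 with the L2 mean), while the 6 libraries used correlated with the L2 mean at 0.988 to 0.993. The yolk protein gene *vit-2* stood at 16.5 to 21.3 CPM (counts scaled by the TMM-normalized library total) in Mix and at 11.4 to 23.3 CPM in the 3 OP50 libraries used, and at 11480 CPM in the one left out. The early larval gene *lin-28* stood at 151 to 159 CPM in Mix and 151 to 161 CPM in OP50. Summed germline markers were 53.9 to 64.2 CPM in Mix and 53.1 to 85.6 CPM in OP50. Summed molting and cuticle assembly genes, which cycle within each stage, spread more widely in OP50 (1569 to 2103 CPM in Mix, 935 to 4041 CPM in OP50). The total count on genes was 12406106 to 23060068 in Mix and 14523794 to 45200110 in OP50.

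Of 14108 genes tested with edgeR's quasi-likelihood test, 58 passed a Benjamini-Hochberg adjusted p of 0.05, which is 0.411% of those tested. Larvae on Mix had 48 of them lower (0.34% of genes tested) and 10 higher (0.0709%) than larvae on OP50. All 58 are protein-coding, and 57 differed by a log2 change of at least 1. In each of the 58 the Mix libraries lay all above or all below the OP50 libraries, against 14% of all genes tested (6.18% with every Mix library above, 7.87% with every Mix library below). The median log2 change of all genes tested was -0.01. At an unadjusted p under 0.05 (edgeR), 453 of the 14108 genes were higher and 615 lower. DESeq2 called 88 of 15013 genes higher and 137 lower. An edgeR model of all 4 groups at L2 (Mix, OP50, MYb71 and MYb65) called 20 of 14850 higher and 75 lower. Counts of gene lists below are to be read beside the all-gene counts of the same setting. The plot of all genes tested shows a few very large decreases, led by *acdh-1*, C55B7.3 and *argk-1*, and increases that were smaller and fewer.

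**Figure D1:**
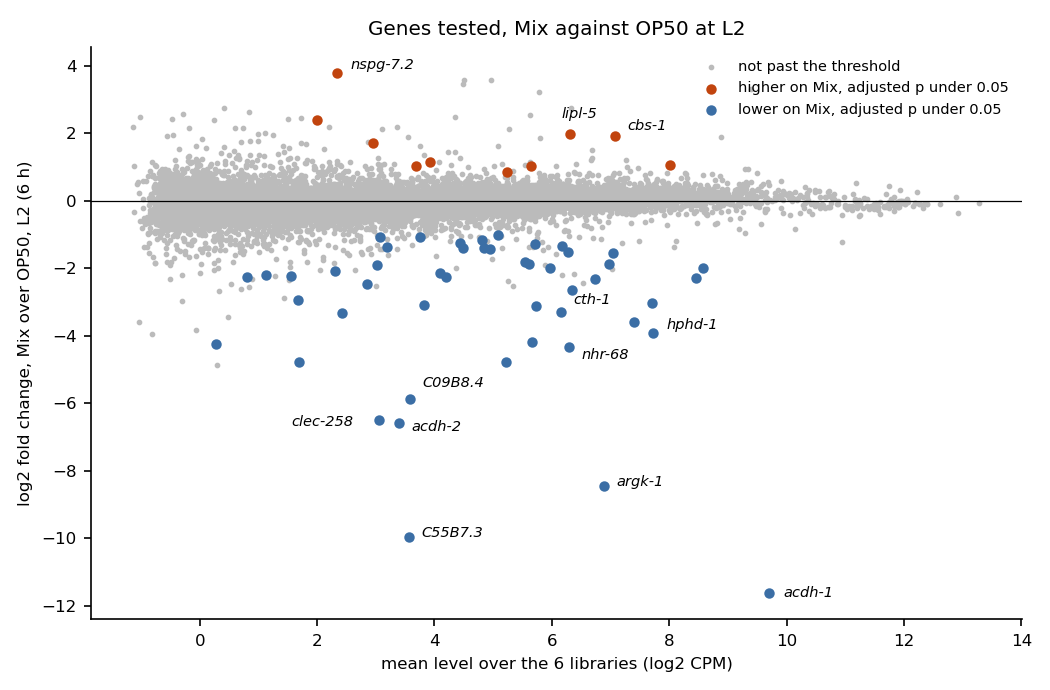
Log2 fold change (Mix over OP50 at L2, y axis) against the mean level over the 6 libraries (log2 CPM, x axis) for each of the 14108 genes tested, as 1 point per gene. The 48 genes past the threshold and lower on Mix (blue) reach much further from 0 than the 10 that are higher (orange), down to a log2 change of -11.63 for *acdh-1*.

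Genes of the propionate shunt were lower on Mix, 3 of 5 past the threshold, against 0.34% of all genes tested, and none higher. *acdh-1* codes for the acyl-CoA dehydrogenase that begins the shunt and is widely used as a sensor of low B12. It had 0.962, 0.131 and 0.470 CPM in the 3 Mix libraries, against 1519, 2013 and 1431 CPM in the 3 OP50 libraries. It was thus among the strongly transcribed genes on OP50 and near the limit of detection on Mix, a log2 change of -11.63 ± 0.56 (SE, n = 3 and 3, edgeR adjusted p = 0.00036). *hphd-1*, the 3-hydroxypropionate oxoacid transhydrogenase, had 36, 20.31 and 23.1 CPM on Mix, against 418, 485 and 294 CPM on OP50. It was 15.1-fold lower (log2 -3.91 ± 0.30, edgeR adjusted p = 0.00231). The enoyl-CoA hydratase gene *ech-6* had 123, 108 and 124 CPM on Mix, against 550, 677 and 519 CPM on OP50, a decrease of 4.93-fold (edgeR adjusted p = 0.00167). For these 3 genes the groups were far apart, and the Mix libraries differed little among themselves for *ech-6*.

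The remaining 2 of the 5 shunt genes did not pass. *hach-1*, the hydrolase of the shunt, had 95, 75.2 and 87.1 CPM on Mix, against 200.5, 263 and 153 CPM on OP50 (log2 -1.26 ± 0.22, edgeR adjusted p = 0.0788). It passed in the model of all 4 groups (edgeR adjusted p = 0.0149) and with DESeq2 (DESeq2 adjusted p = 6.16e-05). *alh-8*, the aldehyde dehydrogenase that ends the route, had 730.6, 604 and 390 CPM on Mix, against 936, 1133 and 731.3 CPM on OP50 (log2 -0.70, edgeR adjusted p = 0.588). In both, every Mix library was below every OP50 library, as in 7.87% of all genes. The median log2 change of the 5 genes was -2.3, against -0.01 over all genes tested.

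*dhgd-1*, the dehydrogenase of D-2-hydroxyglutarate, which HPHD-1 produces, was lower as well. It had 49, 41 and 47.1 CPM on Mix, against 392, 442 and 278 CPM on OP50, a log2 change of -3.02 ± 0.21 (edgeR adjusted p = 0.00167). *acdh-2*, a second acyl-CoA dehydrogenase gene, had 0.433, 0.131 and 0 CPM on Mix, against 26.9, 25.3 and 8.99 CPM on OP50 (log2 -6.58 ± 0.71, edgeR adjusted p = 0.0111). Its exons overlap those of *ins-13*, and the kit used keeps no record of the strand. C55B7.3 begins 422 bp after the end of *acdh-1* on the same strand (chromosome I, 6499982 to 6501410 and 6497436 to 6499560 in WBcel235). It had 0, 0.0435 and 0 CPM on Mix, against 25.1, 25.3 and 19.7 CPM on OP50. With 1 count in the Mix libraries together and 1852 in the OP50 libraries, the OP50 level was 1366 times the Mix level, with an exact 95% counting interval of 245 to 54000.

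Most genes of the B12-dependent propionate pathway did not pass. Of 8 measured genes, 1 was lower past the threshold and none was higher, with a median log2 change of -0.08. *mmaa-1*, a chaperone that loads the cofactor onto methylmalonyl-CoA mutase, had 43.2, 40.8 and 36.2 CPM on Mix, against 111, 140 and 91.3 CPM on OP50 (2.84-fold lower, edgeR adjusted p = 0.0194). *cblc-1*, which processes cobalamin, had 37.8, 22.8 and 25.2 CPM on Mix, against 68.2, 94.2 and 60.3 CPM on OP50 (log2 -1.37, edgeR adjusted p = 0.0976). It passed in the model of all 4 groups (edgeR adjusted p = 0.0171) and with DESeq2 (DESeq2 adjusted p = 0.000153). The mutase gene *mmcm-1* overlapped between groups, at 184, 107 and 94.6 CPM on Mix and 149, 167 and 92.7 CPM on OP50 (log2 -0.08 ± 0.31). The propionyl-CoA carboxylase gene *pcca-1* did too, at 492, 309 and 285 CPM on Mix and 381, 416 and 250 CPM on OP50 (log2 0.05 ± 0.27). The cofactor genes *mmab-1* and *mmad-1* had log2 -0.06 ± 0.15 and -0.07 ± 0.25, the carboxylase gene *pccb-1* -0.01 ± 0.28 and the epimerase gene *mce-1* -0.36 ± 0.19, each with overlapping groups. Thus *mmaa-1* and *cblc-1* were the only 2 of the 8 whose groups did not overlap.

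Among the receptors, the levels of *nhr-68* and *nhr-114* were lower on Mix and that of *nhr-10* overlapped. *nhr-68* had 9.19, 6.31 and 6.58 CPM on Mix, against 140, 186 and 120 CPM on OP50, a 20.1-fold decrease (log2 -4.33 ± 0.25, edgeR adjusted p = 0.000667). *nhr-114* had 20.9, 30.2 and 23.7 CPM on Mix, against 94.4, 113 and 91.8 CPM on OP50 (log2 -2.0 ± 0.18, edgeR adjusted p = 0.00442). *nhr-10* had 61.9, 57.9 and 66.0 CPM on Mix and 63.7, 62.9 and 73.9 CPM on OP50 (log2 -0.11 ± 0.13, edgeR adjusted p = 0.899). Of 213 nuclear hormone receptor genes tested, 3 passed and all were lower on Mix, the third being *nhr-101* (2.62-fold, edgeR adjusted p = 0.0302). Over all genes tested, 0.34% were lower. DESeq2 called 7 of 227 receptor genes lower and 1 higher, against 137 lower and 88 higher of 15013 genes in all. *nhr-101* ends 891 bp before *nhr-68* begins on chromosome V, and its exons overlap those of *pms-2*. *nhr-8*, a receptor of xenobiotic and sterol responses, missed the threshold with 21.9, 24.6 and 25.1 CPM on Mix, against 12.57, 13.6 and 14.3 CPM on OP50 (log2 0.83, edgeR adjusted p = 0.0571).

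**Figure D2:**
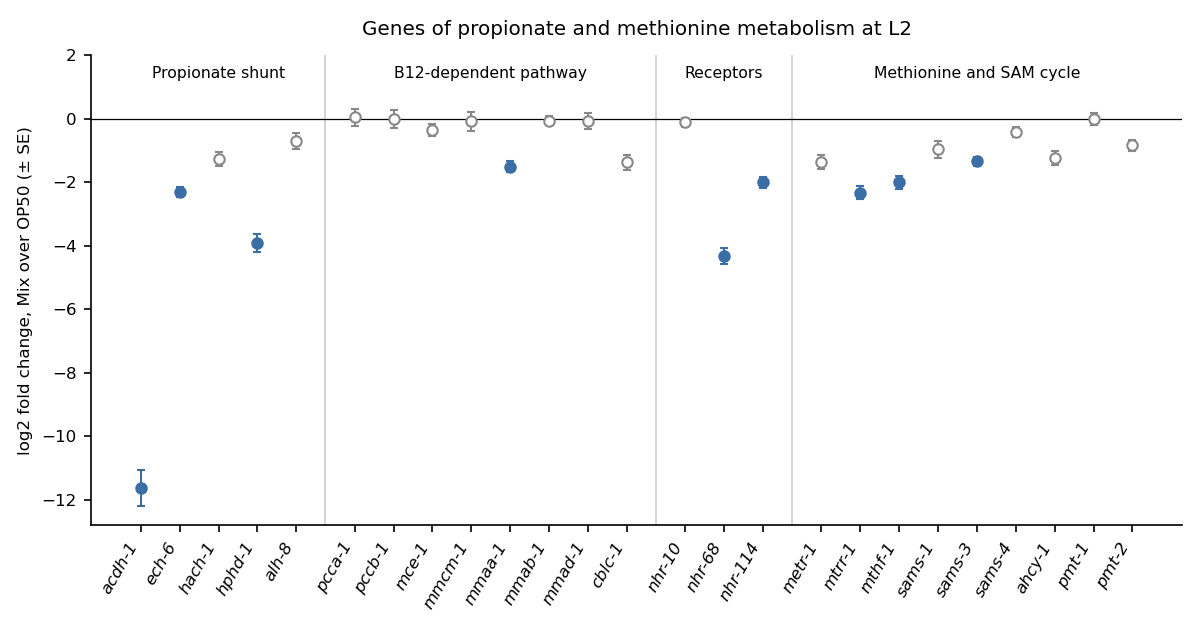
Log2 fold change (Mix over OP50 at L2, y axis, ± SE) for each measured gene of 4 lists; filled points are genes past the threshold. *acdh-1* (-11.63), *nhr-68* (-4.33) and *hphd-1* (-3.91) lie lowest, the carboxylase and mutase genes of the B12-dependent pathway lie at 0, and all genes of the methionine and SAM cycle but *pmt-1* lie below 0.

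In the methionine and SAM cycle, 3 of 9 genes tested were lower on Mix and none was higher, with a median log2 change of -1.23. In 8 of the 9 every Mix library was below every OP50 library, against 7.87% of all genes tested. DESeq2 called 7 of 10 genes of this list lower, against 137 of 15013 genes in all. The model of all 4 groups called 4 of 9, against 75 of 14850. *mtrr-1*, the reductase that keeps methionine synthase active, had 33.4, 37.7 and 34.9 CPM on Mix, against 194, 208 and 131 CPM on OP50 (5.03-fold, edgeR adjusted p = 0.00342). *mthf-1*, which makes the methyl donor of methionine synthase, had 164, 163 and 131 CPM on Mix, against 732, 632 and 463 CPM on OP50 (4.0-fold, edgeR adjusted p = 0.00856). *sams-3*, a SAM synthetase gene, had 35.6, 45.5 and 41.5 CPM on Mix, against 102, 112 and 95.2 CPM on OP50 (2.53-fold, edgeR adjusted p = 0.0117). Exons of *mthf-1* overlap C06A8.6 and those of *sams-3* overlap C06E7.4, and SAM synthetase genes are close copies whose reads can be counted for one another.

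Methionine synthase itself, *metr-1*, did not pass, with 113, 183 and 158 CPM on Mix, against 473, 379 and 321 CPM on OP50 (log2 -1.37 ± 0.23, edgeR adjusted p = 0.0691). It passed in the model of all 4 groups (edgeR adjusted p = 0.0319) and with DESeq2 (DESeq2 adjusted p = 7.26e-06). *ahcy-1*, the hydrolase of S-adenosylhomocysteine, had 1332, 1347 and 861 CPM on Mix, against 3166, 2920 and 2242 CPM on OP50 (log2 -1.23, edgeR adjusted p = 0.107). *sams-1* had 373, 605 and 299 CPM on Mix, against 948, 781 and 746 CPM on OP50 (log2 -0.95, edgeR adjusted p = 0.336). These 3 genes are strongly transcribed and their groups did not overlap. Why they missed the threshold in the main comparison was not tested. Of the methyltransferases that use SAM to build phosphatidylcholine, *pmt-2* had log2 -0.84 (edgeR adjusted p = 0.18) and *pmt-1* 0.00 (edgeR adjusted p = 0.998).

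Folate and sulfur metabolism gave single large changes amid genes that did not pass. *folt-2*, a gene of the folate transporter family, had 9.62, 12.44 and 10.89 CPM on Mix, against 98.5, 83.0 and 103 CPM on OP50. Its 8.64-fold decrease (log2 -3.11 ± 0.17, edgeR adjusted p = 0.000522) was the only call among 10 folate and one-carbon genes tested, whose median was -0.19. *mel-32*, the serine hydroxymethyltransferase, had 356, 328 and 326 CPM on Mix, against 650, 572 and 418 CPM on OP50 (log2 -0.70, edgeR adjusted p = 0.304).

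The transsulfuration list held 1 gene that was higher and 1 that was lower among 9 tested. *cbs-1*, a cystathionine beta-synthase that uses up homocysteine, had 192, 230 and 220 CPM on Mix, against 60.6, 49.2 and 59.5 CPM on OP50. It was 3.79-fold higher (log2 1.92 ± 0.15, edgeR adjusted p = 0.00253), with the smallest p of all genes that were higher. *cth-1*, a cystathionine gamma-lyase, which acts on the product of that synthase, went the other way, with 14.7, 12.5 and 11.8 CPM on Mix, against 58.5, 192 and 137 CPM on OP50 (9.93-fold lower, edgeR adjusted p = 0.0216). The Mix libraries were close together in *cth-1*, and OP50 replicate 1 was the lowest of its group.

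*argk-1*, an arginine kinase, showed the same order of the OP50 libraries. It had 0.818, 0.435 and 0.784 CPM on Mix, against 76.6, 430 and 201.8 CPM on OP50 (log2 -8.46 ± 0.78, edgeR adjusted p = 0.00499). A second arginine kinase gene, F46H5.3, overlapped between groups (log2 0.22, edgeR adjusted p = 0.892). *argk-1* lies 1144 bp from *cth-1* on chromosome V (16103894 to 16105952 and 16100680 to 16102750 in WBcel235), and the chemoreceptor gene *str-7* lies 1139 bp from *cth-1*. *str-7* had 0.144, 0.0435 and 0.157 CPM on Mix, against 1.08, 3.13 and 2.46 CPM on OP50 (edgeR adjusted p = 0.0429), again with OP50 replicate 1 lowest. *msra-1*, which repairs oxidized methionine in proteins, had 48.3, 60.2 and 52.8 CPM on Mix, against 201.5, 229 and 161 CPM on OP50 (3.66-fold lower, edgeR adjusted p = 0.00572). It was the only call among 17 genes of the oxidative stress list, and its exons overlap *insc-1*.

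**Figure D3:**
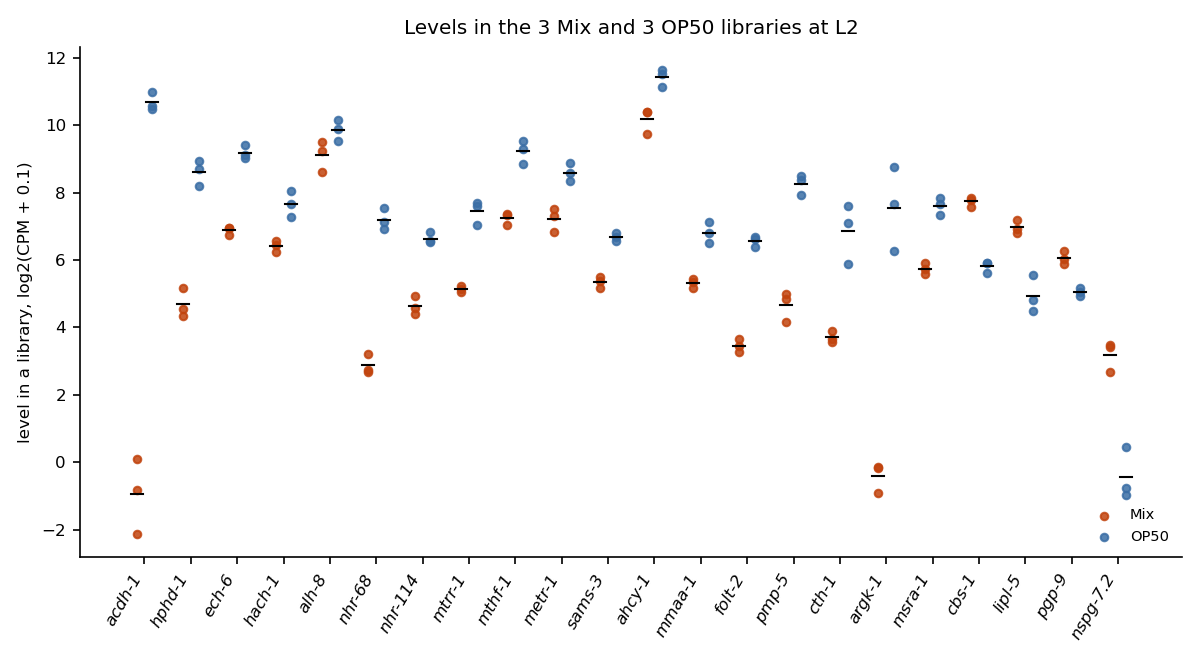
Level of 22 genes in each library, as log2(CPM + 0.1) on the y axis, with 1 point per library, Mix in orange to the left of OP50 in blue, and a bar at the mean of the 3 points. The 3 Mix points and the 3 OP50 points do not overlap in any of the 22 genes, and *alh-8* has its highest Mix library (730.6 CPM) just under its lowest OP50 library (731.3 CPM). The 22 genes were chosen for display, and genes with overlapping groups such as *nhr-10* are not shown. Over all genes tested, 14% had groups that did not overlap.

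Further genes with large decreases have transport roles or no role stated here. *pmp-5*, an ABC transporter of the peroxisomal membrane protein family, had 17.9, 28.7 and 31.7 CPM on Mix, against 335, 358 and 243 CPM on OP50 (12-fold, edgeR adjusted p = 0.00231). It was the only one of 5 such transporter genes to pass. *slc-5A12*, of the sodium-coupled monocarboxylate transporters, was 3.63-fold lower (edgeR adjusted p = 0.00853), and the nucleoside transporter gene *ent-7* was 2.12-fold lower (edgeR adjusted p = 0.0302). Exons of *slc-5A12* overlap ZK829.1 and those of *ent-7* overlap F44D12.2. T05E12.6 had 3.37, 6.35 and 6.03 CPM on Mix, against 107, 99.8 and 81.6 CPM on OP50, an 18.4-fold decrease. The chemoreceptor gene *srh-237*, 937 bp from T05E12.6, had 0.0962, 0.261 and 0.313 CPM on Mix, against 5.59, 5.25 and 7.23 CPM on OP50. F21C10.9 had 2.60, 2.57 and 2.66 CPM on Mix, against 44.8, 104 and 66.6 CPM on OP50, and C09B8.4 had 0.674, 0.218 and 0.235 CPM on Mix, against 28.1, 28.2 and 13.1 CPM on OP50. In these genes the Mix libraries were low throughout, and F21C10.9 shares exon sequence with F21C10.10.

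Among immune genes, 3 C-type lectin genes and 1 infection response gene passed, all lower on Mix. Of 102 C-type lectin genes tested, which code for secreted or membrane proteins often induced by bacteria, 3 were lower and none was higher with edgeR. Over all genes tested, 0.34% were lower and 0.0709% higher. The median of the lectin list was 0.18. At an unadjusted p under 0.05, 20 were higher and 7 lower with edgeR, against 453 and 615 of all 14108 genes tested. DESeq2 called 8 higher and 3 lower, against 88 and 137 of 15013 genes in all. The edgeR model of all 4 groups called 2 higher and 3 lower, against 20 and 75 of 14850. The settings thus differ in how many of the higher genes passed. *clec-258* had 0.192, 0.218 and 0.0784 CPM on Mix, against 7.64, 18.1 and 23.4 CPM on OP50 (edgeR adjusted p = 0.00404). *clec-47* had 0.529, 0.957 and 1.49 CPM on Mix, against 7.61, 11.8 and 9.34 CPM on OP50 (9.94-fold lower, edgeR adjusted p = 0.0117). *clec-48* was 2.71-fold lower (edgeR adjusted p = 0.018). Highly transcribed lectins lay the other way without passing, such as *clec-63* with 1118, 931 and 840 CPM on Mix, against 682, 670 and 738 CPM on OP50 (log2 0.47, edgeR adjusted p = 0.487). The 3 calls were in genes of much lower level than *clec-63*, and such families share sequence, so single members are uncertain.

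Of 16 infection response genes 1 was lower in the 6-library edgeR fit, against 0.34% of all genes tested. DESeq2 called 5 lower, against 137 of 15013 genes in all, and the model of all 4 groups 2, against 75 of 14850. The gene lower in the 6-library fit was *irg-8*, with 48.4, 83.0 and 69.3 CPM on Mix, against 211, 192 and 184 CPM on OP50 (2.92-fold, edgeR adjusted p = 0.0302). *irg-4* missed the threshold in that fit, with 20.7, 28.4 and 24.8 CPM on Mix, against 71.3, 66.6 and 142 CPM on OP50 (log2 -1.92, edgeR adjusted p = 0.0651). It passed in the model of all 4 groups (edgeR adjusted p = 0.0093) and with DESeq2 (DESeq2 adjusted p = 2.6e-07). *lys-10*, a lysozyme gene of low level, had log2 -2.46 (edgeR adjusted p = 0.0571), and none of 13 lysozyme genes passed with edgeR (1 higher and 6 lower at an unadjusted p under 0.05), while DESeq2 called 2 lower. Among 23 genes of the *pals* family, which respond to intracellular pathogens, none passed with edgeR, the median was -0.68, and 9 had every Mix library below every OP50 library, against 7.87% of all genes. At an unadjusted p under 0.05, 10 of the family were lower with edgeR, against 615 of all 14108 genes tested (453 were higher). DESeq2 called 4 of the family lower, and the edgeR model of all 4 groups at L2 called 1. The lowest of them, *pals-3*, had 3 counts in Mix and 51 in OP50 in all, an OP50 level 12.5 times the Mix level (exact 95% counting interval 4.06 to 62.8, edgeR adjusted p = 0.132), and it overlaps *pals-4* and *pals-12*.

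None of 15 heat shock genes passed with edgeR (5 lower at an unadjusted p under 0.05), while DESeq2 called 2 lower and edgeR without OP50 replicate 4 called 1. At that unadjusted p, 453 of all 14108 genes tested were higher and 615 lower. *hsp-16.2* had 23.8, 25.4 and 28.2 CPM on Mix, against 198, 79.3 and 77.1 CPM on OP50 (log2 -2.2, edgeR adjusted p = 0.0788). *hsp-16.41* had 21.8, 34.5 and 35.3 CPM on Mix, against 232, 93.9 and 81.2 CPM on OP50 (edgeR adjusted p = 0.132). OP50 replicate 1 was the highest in both, and the other two OP50 libraries were still above every Mix library. Of the heavy metal and zinc genes, which include the metallothioneins, none of 8 passed with edgeR (1 higher and 2 lower at an unadjusted p under 0.05), and DESeq2 called 1 higher. *mtl-1* had 2.31, 3.78 and 7.76 CPM on Mix, against 8.08, 24.3 and 8.99 CPM on OP50 (log2 -1.6, edgeR adjusted p = 0.54). *mtl-2* had 2.36, 20.8 and 29.2 CPM on Mix, against 31.9, 31.4 and 47.1 CPM on OP50 (log2 -1.09, edgeR adjusted p = 0.795), where Mix replicate 1 stood far below the other Mix libraries.

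UDP-glucuronosyltransferases, enzymes that attach sugars to foreign and internal compounds, gave 4 calls among 63 genes tested, all lower on Mix. Over all genes tested, 0.34% were lower. DESeq2 called 10 of 65 lower, against 137 of 15013 genes in all. The model of all 4 groups called 6 of 64, against 75 of 14850. *ugt-41* had 5.77, 7.00 and 6.03 CPM on Mix, against 34, 36.1 and 19.5 CPM on OP50 (4.76-fold, edgeR adjusted p = 0.0117). *ugt-9*, *ugt-28* and *ugt-15* were 2.22-, 2.39- and 2.57-fold lower, with edgeR adjusted p-values of 0.0259, 0.042 and 0.0452. In 22 of the 63 every Mix library was below every OP50 library, against 7.87% of all genes, and the list's median was -0.18. None of 62 cytochrome P450 genes passed with edgeR (2 higher and 6 lower at an unadjusted p under 0.05), while DESeq2 called 1 higher and 1 lower and the model of all 4 groups 1 lower. None of 47 glutathione S-transferase genes passed with edgeR (6 higher and 2 lower at an unadjusted p under 0.05), while DESeq2 called 2 higher. At that unadjusted p, 453 of all 14108 genes tested were higher and 615 lower.

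The 10 genes that were higher on Mix form no single pathway. The largest log2 change among them was that of *nspg-7.2*, with 11, 10.5 and 6.35 CPM on Mix, against 0.484, 0.413 and 1.26 CPM on OP50 (13.8-fold, edgeR adjusted p = 0.0147). *klo-2*, a gene of the Klotho family, had 8.61, 5.44 and 5.8 CPM on Mix, against 0.902, 1.59 and 1.4 CPM on OP50 (5.23-fold, edgeR adjusted p = 0.0259). *lipl-5*, a lysosomal lipase gene, had 111, 121 and 146 CPM on Mix, against 22.4, 27.8 and 46.7 CPM on OP50 (3.91-fold, edgeR adjusted p = 0.0382). It was the only one of 11 lipase genes to pass in the 6-library edgeR fit. DESeq2 called 5 higher, against 88 of 15013 genes in all. Without OP50 replicate 4 edgeR called 2 higher, against 29 of 14594. The list's median was 1.05, and in 5 genes every Mix library was above every OP50 library, against 6.18% of all genes. The lipase gene *fil-1* had 19, 12.61 and 18.9 CPM on Mix, against 2.49, 1.65 and 7.23 CPM on OP50 (log2 2.19, edgeR adjusted p = 0.214), and *lipl-2* had log2 1.45 (edgeR adjusted p = 0.288).

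The chitinase-like gene *chil-22* had 10.8, 10.1 and 14.8 CPM on Mix, against 2.73, 4.31 and 3.86 CPM on OP50 (3.31-fold higher, edgeR adjusted p = 0.0382). *pgp-9*, an ABC transporter of the P-glycoprotein family, had 76.4, 64.6 and 59.3 CPM on Mix, against 32.8, 30.6 and 35.7 CPM on OP50 (2.02-fold, edgeR adjusted p = 0.0382). *scav-5*, of the scavenger receptor family, had 18.9, 23.2 and 19.9 CPM on Mix, against 7.88, 10.4 and 9.97 CPM on OP50 (edgeR adjusted p = 0.042), and its exons overlap *gst-36*. *pcp-3*, a prolyl carboxypeptidase-like gene, was 2.07-fold higher (edgeR adjusted p = 0.0259), ZK896.5 2.03-fold (0.036) and F32H5.1 1.8-fold (0.0289). In these genes the increase was modest and the libraries of each group lay close together. The cysteine protease gene *cpr-4*, with 962, 697 and 798 CPM on Mix, against 446, 411 and 433 CPM on OP50, missed the threshold (edgeR adjusted p = 0.0817).

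Tissue and stage markers gave no call with edgeR. None of 9 intestine, 10 body wall muscle, 7 pharynx, 10 neuron, 8 epidermis or 12 germline markers tested passed, and their medians ranged from -0.22 (germline) to 0.28 (intestine). At an unadjusted p under 0.05, 1 intestine marker was higher and 1 lower and 1 muscle marker was higher, and DESeq2 called 1 intestine marker lower and none of the other 5 lists. Summed intestine markers were 5956 to 8884 CPM in Mix and 4870 to 6457 CPM in OP50, with Mix replicate 1 the highest and OP50 replicate 4 the lowest. Of 78 ribosomal protein genes, 73 had a negative log2 change and none passed with edgeR or DESeq2 (1 lower at an unadjusted p under 0.05), with a median of -0.15 that became 0.01 without OP50 replicate 4. The part of these shifts in the results above was not tested. Nor did any of 94 cuticle collagen, 38 molting, 27 cell cycle or 10 heterochronic genes pass with edgeR, and DESeq2 called none in these lists. At an unadjusted p under 0.05, 6 collagen and 2 molting genes were higher and none of the others passed. Of all 14108 genes tested, 453 were higher and 615 lower at that p.

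A core list of 86 genes, which the study took as responding to single *Ochrobactrum* isolates across its stages, shares the OP50 libraries with this comparison and is therefore not independent evidence. Of its 84 genes tested here, 30 were lower, 3 were higher and 51 did not pass, with a median log2 change of -1.25. Over all genes tested, 0.34% were lower and 0.0709% higher.

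The 58 genes were unevenly placed on the chromosomes. Chromosome V held 32 of them (55.2%), against 21.1% of all genes tested. Of these 32, 29 were lower and 3 higher on Mix. Chromosomes I, III and X held 3 each and IV and II held 7 and 10. Several calls lie within 5000 bp of another, namely C55B7.3 and *acdh-1*, *nhr-68* and *nhr-101*, T05E12.6 and *srh-237*, *cth-1* with *argk-1* and *str-7*, and B0507.8 and *ddn-1*, which lie 106 bp apart. F32D8.11 and F32D8.12 overlap each other, so their reads (both lower, edgeR adjusted p = 0.00572 and 0.00322) cannot be told apart. Each of these neighbours was lower on Mix.

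Whether the mixture differed from its isolates fed singly was tested against the mean of MYb71 (replicates 1, 2 and 4) and MYb65 (replicates 1 and 2) at L2. Of 14850 genes tested, 0 passed with edgeR (0%), 225 had an unadjusted p under 0.05, and DESeq2 also called 0. A p that misses the threshold does not show that the diets act alike, and the sizes of the differences are given for the leading genes. *nhr-68* stood at 9.19, 6.31 and 6.58 CPM on Mix, against 6.71, 7.76 and 9.11 CPM on MYb71 and 11.11 and 12.38 CPM on MYb65 (Mix minus the mean of both, log2 -0.38 ± 0.19). *mtrr-1* had 33.4, 37.7 and 34.9 CPM on Mix, against 32.1, 31.9 and 35.4 CPM on MYb71 and 31.8 and 27.5 CPM on MYb65 (log2 0.17 ± 0.16). *cbs-1* had 192, 230 and 220 CPM on Mix, against 229, 219 and 200 CPM on MYb71 and 207 and 161 CPM on MYb65 (log2 0.10 ± 0.14). In these genes the Mix libraries lay within or close to the range of the single isolates.

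The largest difference among the 58 genes was that of *acdh-1*, with 0.962, 0.131 and 0.470 CPM on Mix, against 0.0529, 0 and 0 CPM on MYb71 and 0.217 and 0.212 CPM on MYb65 (log2 2.80 ± 0.74, edgeR adjusted p = 1). All of these values are below 1 CPM, so the difference concerns a gene near the limit of detection on every *Ochrobactrum* diet. Of the 58, 25 were higher and 33 lower on Mix than the mean of the single isolates. The gene with the smallest p among those named was W04A8.5 (log2 2.72, unadjusted p = 0.00142), which had 0.433, 0.565 and 0.548 CPM on Mix and at most 0.230 CPM on either isolate. Changes against OP50 for the single isolates stand in the plot of the 58 genes, and they share the OP50 libraries with those of Mix.

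At L3 (24 h), the next stage, Mix and OP50 were sampled as 3 libraries each (OP50 replicates 1, 2 and 4), none shared with L2. There 33 genes were higher (0.22% of 15003 tested) and 115 lower (0.767%) on Mix past the threshold. Of the 48 genes lower at L2, 38 were lower past the threshold at L3, and of the 10 that were higher, 6 were higher past it. Only *ugt-9* of the 58 had the opposite sign at L3 (log2 -1.15 at L2 and 0.00 at L3). *acdh-1* stood at 4.21, 0.609 and 1.03 CPM on Mix at L3, against 2656, 3507 and 1559 CPM on OP50, and *argk-1* at 0.688, 0.609 and 0.715 CPM on Mix, against 687, 1004 and 453 CPM on OP50. The very large decreases were thus found in separate libraries of older larvae as well.

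**Figure D4:**
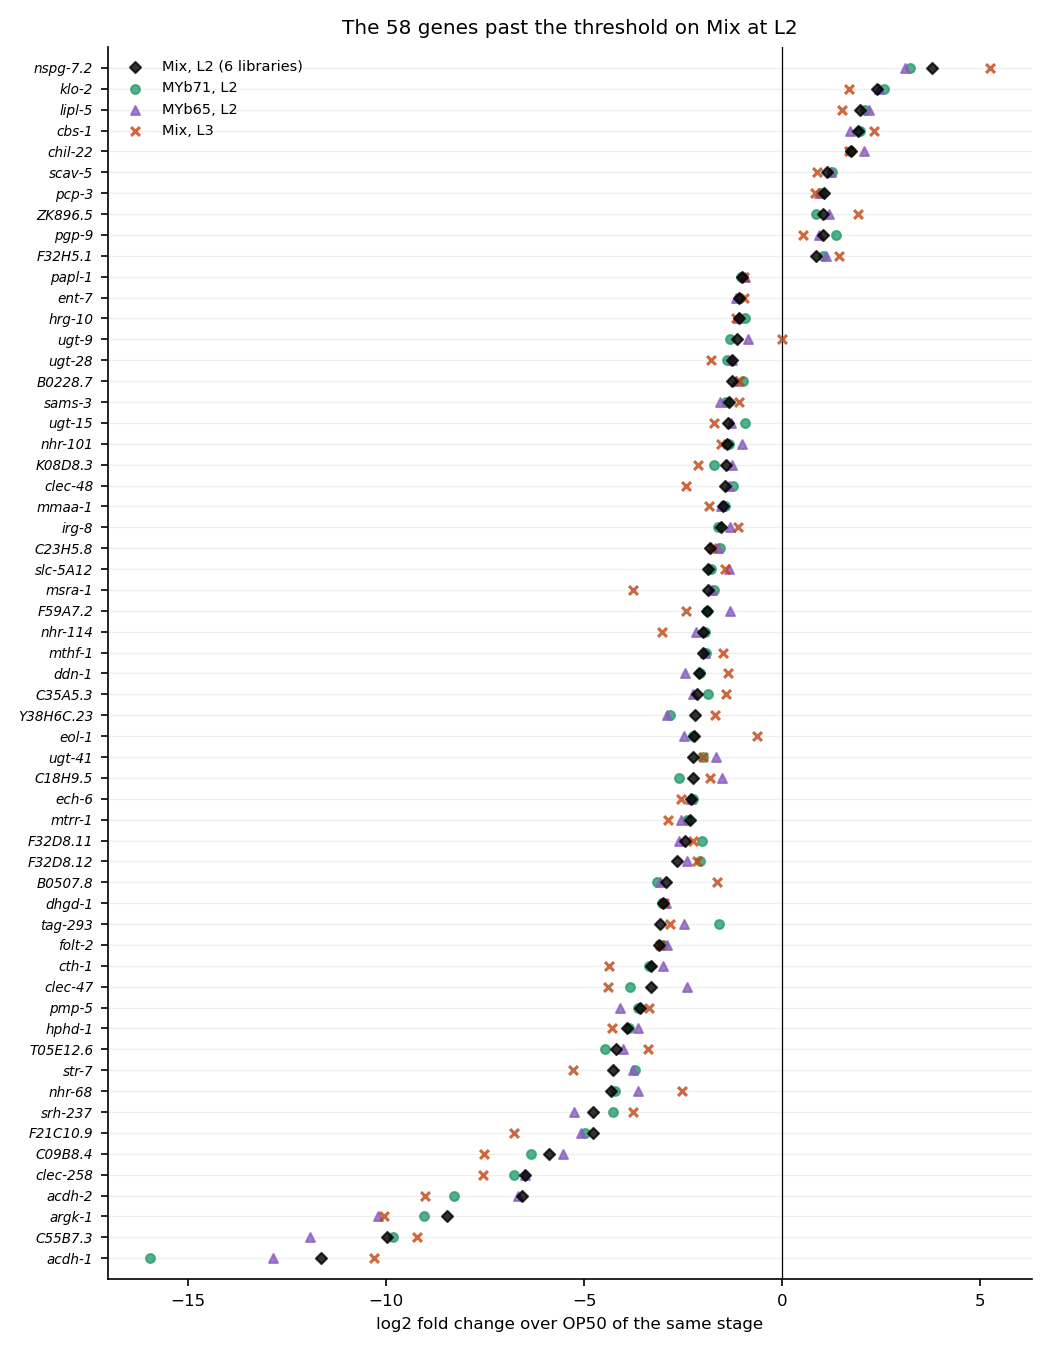
Log2 fold change over OP50 of the same stage (x axis) for the 58 genes (rows): Mix at L2 from the 6 libraries (black), MYb71 and MYb65 at L2, and Mix at L3. Points of a gene mostly lie on 1 side of 0, with *ugt-9* at L3 on the line at 0, and the 3 L2 comparisons share their OP50 libraries.

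The difference between the changes at L2 and L3 was tested directly, and 0 of 15003 genes passed with edgeR (0%), with 436 at an unadjusted p under 0.05 and 15 called by DESeq2. The smallest p belonged to *nhr-68*, whose log2 change was -4.33 at L2 and -2.52 at L3, a difference of -1.81 ± 0.26 (unadjusted p = 3.16e-05, edgeR adjusted p = 0.475). At L3 it had 20.5, 17.8 and 19.4 CPM on Mix, against between 102 and 116 CPM on OP50. *msra-1* pointed the other way, with a log2 change of -1.87 at L2 and -3.76 at L3 (difference 1.88 ± 0.42, edgeR adjusted p = 1). On OP50 it had 201.5, 229 and 161 CPM at L2 and 780, 762 and 300 CPM at L3. The peroxisomal enoyl-CoA hydratase gene *ech-9* had 14.9, 18.2 and 22.8 CPM on Mix at L3, against 2.59, 1.19 and 3.18 CPM on OP50 (log2 0.56 at L2 and 2.99 at L3, edgeR adjusted p of the difference = 0.616). These differences are values to weigh against their errors, since none passed over all genes.

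The number of calls depended on the libraries. Leaving out 1 library at a time gave 16 to 89 calls, lowest without Mix replicate 3 and highest without OP50 replicate 4. In each of the 6 such fits the same 15 genes passed. These are C55B7.3, *acdh-1*, *folt-2*, *nhr-68*, T05E12.6, *dhgd-1*, F21C10.9, *ech-6*, *pmp-5*, *hphd-1*, *cbs-1*, *srh-237*, *tag-293*, C09B8.4 and F32D8.12. The counts were 42 and 23 without Mix replicates 1 and 2, and 43 and 22 without OP50 replicates 1 and 2. Between 16 and 49 of the 58 genes passed in a fit of 5 libraries, and none of the 58 changed sign. The calls in *mtrr-1*, *nhr-114*, *argk-1*, *mthf-1*, *sams-3*, *cth-1* and all the genes that were higher but *cbs-1* were lost in at least 1 of these fits.

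**Figure D5:**
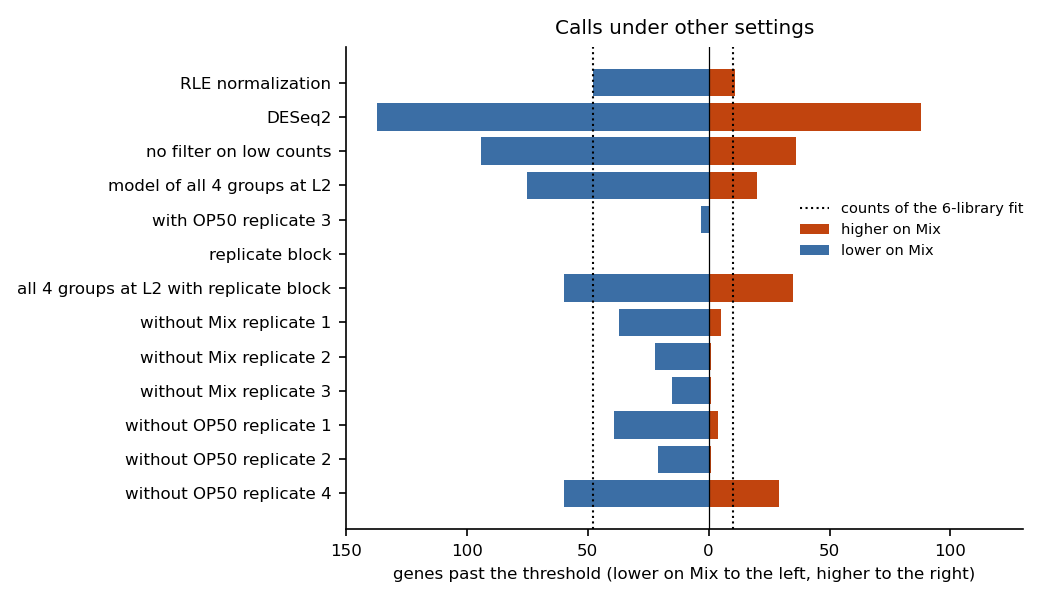
Number of genes past the threshold (x axis; lower on Mix to the left in blue, higher on Mix to the right in orange) under each other setting (rows), with dotted lines at the 48 and 10 of the 6-library comparison. The count is 0 with a replicate block, 3 with OP50 replicate 3 and 16 without Mix replicate 3, and reaches 225 with DESeq2.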

How the data were processed

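The authors trimmed reads of paired-end TruSeq libraries, whose kit does not mark the strand, with Trimmomatic, mapped them to WormBase WS235 with STAR 2.5.3a and counted them per gene with HTSeq. The deposited tables hold unnormalized read counts of 46748 genes. How reads matching more than 1 gene were treated was not stated. Symbols, coordinates and overlaps come from WBcel235 (Ensembl annotation), in which 46449 identifiers were found. The labels name mNGM medium where the paper names peptone-free medium.

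The 6 libraries were compared in edgeR 4.0.16 under R 4.3.3 (quasi-likelihood test, robust estimates, TMM, filterByExpr with minimum count 10, minimum total 15 and share 0.7), two-sided, with Benjamini-Hochberg adjustment over all genes tested and a threshold of 0.05. DESeq2 1.42.0 was an alternative, as were RLE scaling, no filter, a minimum fold, a model of all 4 L2 groups, replicate blocks, OP50 replicate 3 and leaving out each library. MYb71 replicate 3 at L2 and OP50 replicate 3 at L3 were set aside on earlier results of these data. The profile of MYb71 replicate 3 went with its label (r = 0.989 with the L2 mean), and it entered 1 alternative. A library titled MYb65 L2 but labelled L3 (24 h) was not used. The SE of a log2 change is approximate, namely its absolute value divided by the square root of the quasi-likelihood F statistic. Counting intervals are exact, 95%, and cover counting error only. The procedure was tested on simulated data. Libraries of 1 group differed by more than sampling noise, so none was counted as a copy.

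Named genes are the 10 highest and 10 lowest log2 changes among calls with mean log2 CPM of at least 2, the 5 smallest p in each direction, the 3 smallest p of each list, all members of the shunt, B12, receptor, SAM and metallothionein lists, some genes the paper names, and the 5 smallest p in each direction of the tests against single isolates and L3. The other calls, also named, were chosen after their values were seen. The members, gene lists and this rule were chosen with earlier results of these data known.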

Additional observations from a re-analysis of the deposited data

Results flagged for a closer look

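The library labelled OP50 at L2, replicate 3, stood far from the other 3 libraries of that label in 4 of 7 measures checked, by the gap to its nearest neighbour relative to the whole range. It had 11480 CPM of *vit-2* (11.4 to 23.3 CPM in the others), 2903 CPM of *cbd-1*, an eggshell gene (5.34 to 5.87 CPM), 135 CPM of the adult collagen gene *col-19* (0.739 to 2.41 CPM) and 90.3 CPM of *lin-28* (151 to 161 CPM). Chance gives such a gap in about 1 in 20 groups for a single measure. The library had already been left out for its adult profile, and most measures were stage genes chosen to check the label. The gaps are therefore not separate evidence. The library entered only the alternative that includes it, and its *vit-2* level of 11480 CPM is also a signal in data outside the main comparison, above all OP50 libraries used.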

How the results depend on the processing

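Against 58 calls (10 higher and 48 lower on Mix), RLE scaling gave 59 and a minimum log2 change of 1 gave 57. DESeq2 gave 225 (88 higher, 137 lower), no filter 130 (36 and 94) and the model of all 4 groups at L2 95 (20 and 75), each holding 55 or more of the 58. With OP50 replicate 3, whose profile is adult, 3 passed (*acdh-1*, T05E12.6 and *hphd-1*). A replicate block left 1 degree of freedom and 0 calls with 832 at an unadjusted p under 0.05, and a replicate block in the model of all 4 groups gave 95 (35 and 60), with 51 of the 58. Only numbers 1 and 2 are shared by Mix and OP50, and deviations of same-numbered libraries correlated at 0.179 and -0.246. The numbers were therefore not taken as pairs. Among all pairs of Mix and OP50 libraries, the highest values were 0.407 (Mix replicate 1, OP50 replicate 2) and 0.339 (Mix replicate 3, OP50 replicate 4). The lowest was -0.461 (Mix replicate 1, OP50 replicate 4). In the order of the deposited samples, Mix replicates 1, 2 and 3 at L2 follow OP50 replicates 2, 3 and 4. Equal numbers may therefore not mean the same run. Whether runs were shared under different numbers was not tested, and the blocks used the numbers only. Without 1 library each, 16 to 89 passed. None of the 58 genes changed sign under any of these settings. The tests against the single isolates stayed at 0 in each alternative, the replicate block included. The test of L2 against L3 gave 15 with DESeq2 and 0 to 1 without 1 library each. The causes were not tested, and the fits that leave 1 library out also hold fewer libraries.

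Some genes with values near 0 changed sign. Without 1 library each, *pmt-1* ranged from -0.14 to 0.16, *mmcm-1* from -0.43 to 0.10, *pcca-1* from -0.23 to 0.20 and F46H5.3 from -0.049 to 0.38 on the log2 scale. *pcca-1* was at -0.030 with a replicate block and -0.034 with all 4 groups and a replicate block, where *pmt-1* was at -0.013. *nhr-10* was at 0.066 with OP50 replicate 3. Depth limits genes under about 1 CPM, where a Mix library holds few counts.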
